A study of Mus musculus with 21 samples.

Results

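The receptors described here are G protein coupled receptors for neurotransmitters and prostaglandin E, measured in neurons made from mouse embryonic stem cells (ESC). The genes were chosen by symbol alone: the serotonin (Htr), dopamine (Drd), adrenergic (Adra and Adrb), muscarinic (Chrm), histamine (Hrh), opioid (Oprd1, Oprk1, Oprl1 and Oprm1), somatostatin (Sstr), prostaglandin E (Ptger) and tachykinin (Tacr) receptors. Of 18193 genes on the arrays, 40 met this rule. They comprised 11 serotonin, 4 dopamine, 2 adrenergic, 3 muscarinic, 4 histamine, 4 opioid, 5 somatostatin, 4 prostaglandin E and 3 tachykinin receptors, so histamine, somatostatin and tachykinin receptors stand beside the monoamine, muscarinic, opioid and prostaglandin receptors. A further 11 symbols of the same families, among them Adra2a, Chrm2 and Htr2a, were not analysed here. Each gene is represented by the probe set that varied most over the 21 arrays, which was its only one for 18 of the 40 genes.

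RNA came from purified post-mitotic neurons in 7 groups of 3 arrays. In 3 engineered ESC lines a nestin enhancer (NesE) drove 1 transcription factor in neural precursors, and each line stands for that factor in 1 cell line. The NesE-Lmx1a line, labelled mesencephalic dopaminergic, was sampled after 10 and after 14 days with sonic hedgehog (SHH) and FGF8. The NesE-Nkx2.2 line, labelled serotonergic, was sampled after 10 days with SHH and either FGF8 (rostral hindbrain) or retinoic acid (RA, caudal hindbrain). The NesE-Olig2 line, labelled somatic motor, was sampled after 8 days with SHH and RA. Wild type cells were sampled after 10 days with FGF8 and after 8 days with RA. SHH stands in their titles but is missing from their source names, and they are described as dorsal midbrain and dorsal hindbrain neurons, so line and SHH cannot be told apart if the wild type cells received none. Under RA, the Nkx2.2 line was also 2 days older than the wild type and Olig2 cells, and RA-treated wild type cells were 2 days younger than those given FGF8, so day cannot be told apart from line or agent there. The labels call the arrays biological replicates without saying whether they came from separate cultures, and p-values measure only the spread between these samples.

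Receptors of this kind sit in the plasma membrane and pass the signal of a transmitter to heterotrimeric G proteins. Those coupled to Gi and Go lower cyclic AMP, open inwardly rectifying potassium channels and restrain calcium entry, those coupled to Gs raise cyclic AMP, and those coupled to Gq activate phospholipase C. Neurons that release serotonin, dopamine, noradrenaline, histamine or acetylcholine carry receptors for their own transmitter, called autoreceptors. On serotonergic neurons Htr1a acts on the cell body and dendrites and slows firing, while Htr1b and Htr1d act at terminals and limit release; Drd2 and Drd3 play these parts on dopaminergic neurons. Ptger3 encodes EP3, a prostaglandin E receptor coupled mainly to Gi, and Ptger4 encodes EP4, one coupled to Gs.

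Htr1a, Htr1b and Ptger3 were high together in the Nkx2.2 line, and Ptger4 was high in RA-treated wild type and Olig2 cells but not in RA-treated Nkx2.2 cells. The promoters of these 4 genes are therefore shown, as the 250 bases before the annotated start from RefSeq on build GRCm38.p6. They lie at chr3:157566626-157566875 on the plus strand for Ptger3, chr13:105443443-105443692 on the plus strand for Htr1a, chr9:81633833-81634082 on the minus strand for Htr1b and chr15:5244188-5244437 on the minus strand for Ptger4. Each runs 5′ to 3′ along the gene. Capitals mark matches on either strand to 4 short motifs, none of which contains another: CACTT, a core of NK2 homeodomain sites, CGGAA of ETS factors, GATAA of GATA factors and GGTCA of nuclear receptors.
Ptger3: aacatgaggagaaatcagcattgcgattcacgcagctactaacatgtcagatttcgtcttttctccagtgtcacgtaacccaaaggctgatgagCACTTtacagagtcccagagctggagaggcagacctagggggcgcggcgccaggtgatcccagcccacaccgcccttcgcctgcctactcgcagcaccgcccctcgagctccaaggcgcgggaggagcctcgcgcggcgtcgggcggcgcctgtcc
Htr1a: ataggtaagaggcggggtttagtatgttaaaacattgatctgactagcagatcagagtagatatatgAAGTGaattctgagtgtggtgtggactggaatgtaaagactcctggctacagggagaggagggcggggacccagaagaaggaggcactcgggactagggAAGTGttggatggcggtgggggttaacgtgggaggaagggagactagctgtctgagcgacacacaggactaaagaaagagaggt
Htr1b: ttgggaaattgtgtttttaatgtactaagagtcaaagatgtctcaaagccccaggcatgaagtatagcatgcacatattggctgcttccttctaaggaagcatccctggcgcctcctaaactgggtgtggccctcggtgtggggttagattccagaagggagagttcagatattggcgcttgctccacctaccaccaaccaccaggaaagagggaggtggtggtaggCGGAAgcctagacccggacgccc
Ptger4: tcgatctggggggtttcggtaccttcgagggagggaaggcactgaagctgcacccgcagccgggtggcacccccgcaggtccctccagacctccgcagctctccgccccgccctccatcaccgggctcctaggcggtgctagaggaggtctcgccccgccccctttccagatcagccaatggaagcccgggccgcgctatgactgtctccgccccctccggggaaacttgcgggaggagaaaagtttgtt
Ptger3 held 1 CACTT match and Htr1a held 2, both on the opposite strand and so printed as AAGTG, where 40.7% of 32851 RefSeq promoters of this length held at least 1. Htr1b held 1 CGGAA match, found in 25.2% of promoters. Ptger4 held none of the 4 motifs, including GGTCA, which 35.2% of promoters held. GATAA, present in 22.6% of promoters, was in none of the 4 windows. At these frequencies a match is a description of the letters only.

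Values were deposited on a log2 scale after each probe set had been centred on its median over 27 arrays, 6 of which were not used here. A value therefore gives how far an array lies above or below that median, and the level of a gene, or of 1 gene against another, cannot be read from it. The driven factors were higher in their own lines than in wild type cells: Lmx1a by 5.58 log2 units, Nkx2-2 by 2.27 under FGF8 and 2.61 under RA, and Olig2 by 4.64, although it is not known whether the probe sets read the driven copy. Tph2, which starts serotonin synthesis, was at 4.32 to 6.40 on the 6 Nkx2.2 arrays, and Chat, which makes acetylcholine, at 3.71 to 4.84 on the Olig2 arrays. Th, which starts dopamine and noradrenaline synthesis, was at 3.49 to 6.41 on the 6 Lmx1a arrays. Th was also at 3.90 on replicate 2 of the FGF8 wild type and at 2.38 and 3.43 on replicates 1 and 3 of the FGF8-treated Nkx2.2 line. It therefore did not separate the Lmx1a line from the other FGF8-treated cells. Hybridization control probe sets (bioC) separated 9 arrays at -2.75 to -1.27 (called A) from 12 at -0.15 to 0.65 (called B), a split that the labels do not name. A held all day 10 Lmx1a arrays and replicates 1 and 2 of the day 14 Lmx1a, Olig2 and FGF8 wild type groups, and B held the others. The labelling controls of the 3 day 10 Lmx1a arrays, at -3.59 to -3.57, lay below those of all other arrays, at -1.81 to 2.02.

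Most of the 40 receptors differed little between groups. The difference between the highest and lowest group mean had a median of 0.24 log2 units over the 40 genes, against 0.83 over all 18193 genes. It was above 1 in 13 receptors (43.3% of all genes), above 2 in 8 (16.6% of all genes) and above 4 in 3 (3.1% of all genes). Those 3 were Ptger3, Htr1b and Ptger4. On single arrays, 4 to 7 receptors lay more than 1 log2 unit above their median in the Nkx2.2 line and in RA-treated wild type cells, and 0 to 3 did so on the other 12 arrays. Of all genes, 3.42 to 10.04% lay that far above on the former 9 arrays and 2.87 to 7.17% on the other 12.

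**Figure D1:**
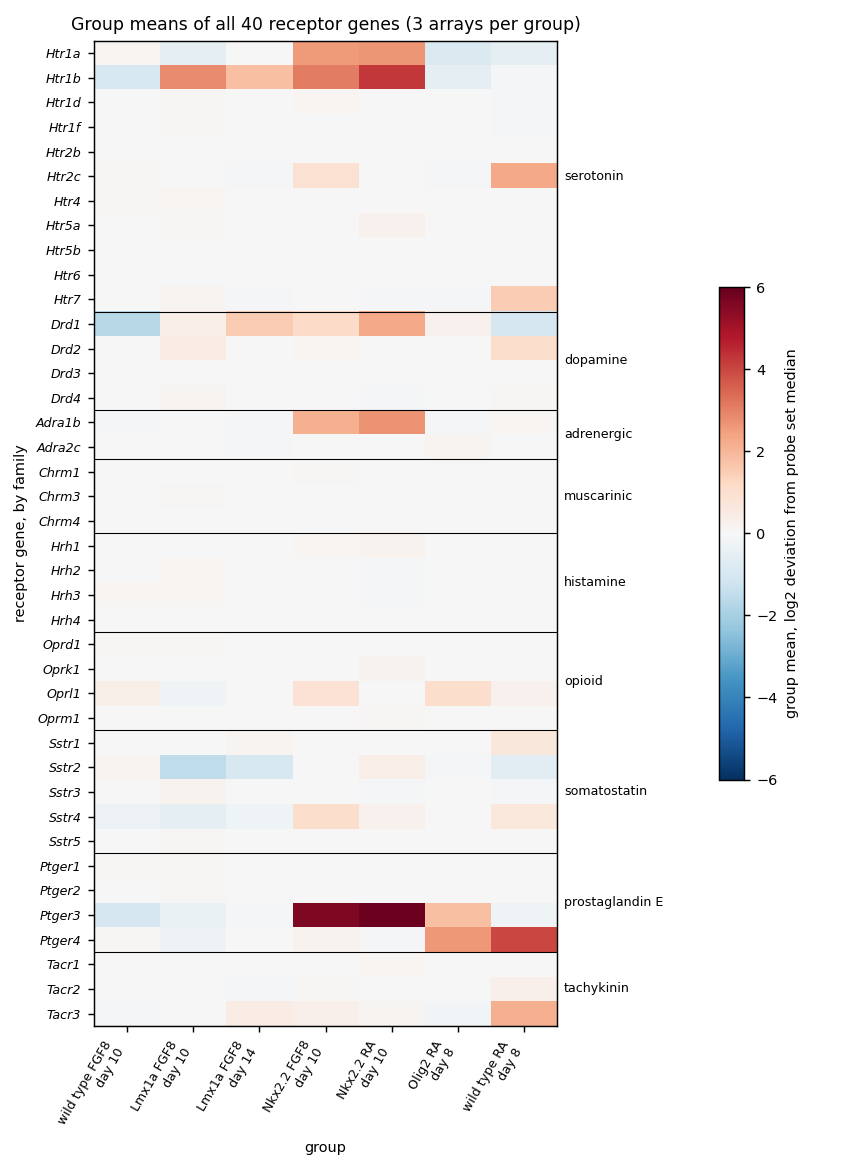
Group means of the 40 receptor genes (rows, by family) in the 7 groups (columns, 3 arrays each), coloured by log2 deviation from the probe set median. Ptger3 reaches 5.62 and 5.88 in the 2 Nkx2.2 groups and Ptger4 reaches 4.0 in RA-treated wild type cells, while most rows stay near 0.

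Among the autoreceptors, Htr1a was high in the Nkx2.2 line alone. Its values on replicates 1, 2 and 3 were 2.97, 2.24 and 2.46 under FGF8 and 2.88, 3.15 and 1.92 under RA. The day 10 Lmx1a arrays read -0.84, -0.38 and -0.56, and the day 14 arrays 0.02, -0.35 and 0.42. The Olig2 arrays read -0.63, -0.54 and -1.40, the FGF8 wild type 0.30, 0.00 and 0.02, and the RA wild type -0.42, -0.42 and -0.97. All 6 Nkx2.2 arrays thus lay above all 15 others, and the 2 Nkx2.2 groups overlapped each other. In bulk samples such as these, fewer cells of a type and less RNA per cell cannot be told apart. A second Htr1a probe set was also highest in the 2 Nkx2.2 groups, at smaller size and with FGF8 above RA: its means were 0.93 under FGF8 and 0.59 under RA in that line and -0.10 to 0.03 elsewhere.

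Htr1b, the terminal autoreceptor of serotonergic neurons, was high in both the Nkx2.2 and the Lmx1a line. It read 3.04, 3.01 and 3.12 on the Nkx2.2 arrays under FGF8 and 4.46, 4.68 and 3.54 under RA. The day 10 Lmx1a arrays read 3.72, 3.24 and 1.59 and the day 14 arrays 2.25, 1.26 and 1.91. Every array of these 4 groups lay above the Olig2 arrays (-0.86, -0.59 and -0.17), the FGF8 wild type (-0.86, -1.01 and -1.07) and the RA wild type (0.00, -0.59 and 0.36). The second Htr1b probe set did not vary, with group means of -0.02 to 0.14, so the pattern of Htr1b rests on 1 probe set. Tph2 read 1.16, 0.25 and -2.20 on the day 10 Lmx1a arrays and 2.27, 0.00 and 1.34 on the day 14 arrays. In the FGF8 wild type it read -2.00, 1.13 and -3.97. Whether Htr1b in the Lmx1a line goes with serotonergic cells was not tested.

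Drd2, the autoreceptor of dopaminergic neurons, was not high as a group in the Lmx1a line. At day 10 its arrays read 0.12, 0.05 and 1.20, and at day 14 they read -0.02, 0.01 and -0.01. In RA-treated wild type cells replicates 1 and 3 read 1.17 and 2.06 and replicate 2 read -0.05. The Nkx2.2 line read 0.35 on replicate 3 under FGF8, and no other array of any group was above 0.13. A gene of the same neurons, the dopamine transporter Slc6a3, read 3.22, 5.39 and 4.31 on the day 14 Lmx1a arrays. The 5 other autoreceptors measured, Htr1d, Drd3, Adra2c, Chrm4 and Hrh3, had group means within -0.08 to 0.18 of their medians. The largest single value among them was 0.52, for Adra2c on replicate 2 of the Olig2 line.

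**Figure D2:**
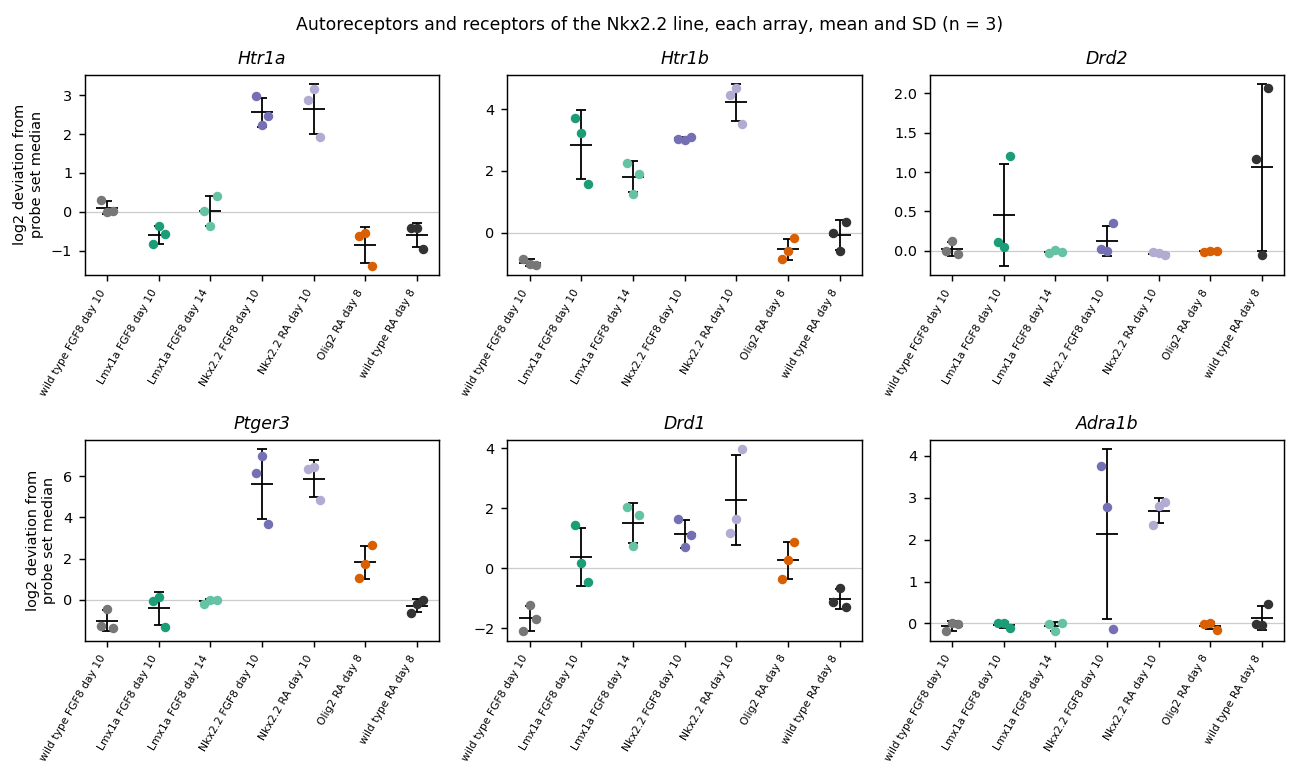
Values of Htr1a, Htr1b, Drd2, Ptger3, Drd1 and Adra1b on each of the 21 arrays (points, log2 deviation from the probe set median) in the 7 groups, with the group mean (wide bar) and SD (whiskers, n = 3). Htr1a and Ptger3 are high on all 6 Nkx2.2 arrays, and Drd2 is above 1 on 2 of 3 RA wild type arrays and 1 day 10 Lmx1a array.

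Ptger3 had the largest difference between groups of the 40 receptors, 6.89 log2 units between the highest and lowest group mean. It read 6.15, 6.99 and 3.71 in the Nkx2.2 line under FGF8 and 6.36, 6.43 and 4.85 under RA. The Olig2 arrays were intermediate, at 1.05, 1.74 and 2.67, and overlapped no other group. The day 10 Lmx1a arrays read -0.03, 0.16 and -1.33, the day 14 arrays -0.18, 0.01 and -0.01, the FGF8 wild type -1.26, -0.43 and -1.35, and the RA wild type -0.62, -0.21 and 0.00. Replicate 3 was the lowest array in both Nkx2.2 groups, and under FGF8 it was also the lowest for Tph2, at 4.48 beside 5.85 and 6.40, and for the serotonin transporter Slc6a4, at 5.06 beside 7.39 and 7.67. The second Ptger3 probe set was also high in the Nkx2.2 line, with means of 1.06 and 1.13, but near 0 in the Olig2 line, so the intermediate Olig2 values rest on 1 probe set. Of the other prostaglandin E receptors, Ptger1 and Ptger2 stayed within -0.05 to 0.09 as group means.

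Drd1, the Gs-coupled dopamine receptor, was lowest in both wild type groups. The FGF8 wild type read -2.10, -1.24 and -1.70 and the RA wild type -1.13, -0.65 and -1.28. The Nkx2.2 line read 1.64, 0.70 and 1.09 under FGF8 and 1.19, 1.64 and 3.97 under RA, where replicate 3 stood well above the others. The Lmx1a line read 1.44, 0.16 and -0.45 at day 10 and 2.03, 0.75 and 1.76 at day 14, and the Olig2 line read -0.37, 0.27 and 0.87. Each of the 3 lines thus lay above its wild type on every array, but in the comparisons below only the Nkx2.2 differences were called. In the Olig2 line, receptors that barely differed, such as Chrm1 (0.03), also lay above the wild type on every array. The share of all genes that separate in this way was not computed. The lines overlapped each other, except that the RA-treated Nkx2.2 arrays all lay above the Olig2 arrays. A second Drd1 probe set gave means of 2.76 in the Nkx2.2 line under RA, 2.11 in the Lmx1a line at day 14, -0.49 in the FGF8 wild type and -0.26 in the RA wild type. Its means were smaller in the Nkx2.2 line under FGF8 (0.75), the Lmx1a line at day 10 (0.56) and the Olig2 line (0.17).

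Adra1b, a Gq-coupled noradrenaline receptor, was high on 5 of the 6 Nkx2.2 arrays. It read 2.35, 2.81 and 2.91 under RA and 3.77, 2.78 and -0.13 under FGF8, where replicate 3 was no higher than cells of other lines. On the 15 other arrays it ran from -0.19 to 0.46. The other adrenergic receptor measured, Adra2c, had a range of group means of 0.25. Adra1b had 1 probe set.

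Ptger4, Htr2c, Htr7 and Tacr3 were highest in RA-treated wild type cells. Ptger4 read 4.16, 3.68 and 4.15 there, 2.08, 2.93 and 2.79 in the Olig2 line, which received RA as well, and 0.09, -0.25 and -0.18 in the RA-treated Nkx2.2 line. Under FGF8 it read -0.04, -0.75 and 1.41 in the Nkx2.2 line, -0.35, -0.55 and 1.12 in wild type cells and -0.32, -0.56 and 0.00 in the Lmx1a line, which read -0.12, -0.07 and 0.13 at day 14. Ptger4 therefore separated 3 levels without overlap: RA wild type, Olig2, and all others. A second Ptger4 probe set read 0.08 in RA wild type cells and did not show the pattern.

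Htr2c, a Gq-coupled serotonin receptor, read 3.23, 1.74 and 1.85 in RA-treated wild type cells. It was also raised on replicates 1 and 3 of the FGF8-treated Nkx2.2 line, at 0.70 and 1.97, beside 0.01 on replicate 2. The 15 other arrays ran from -0.11 to 0.22. Tacr3, the receptor of neurokinin B, read 2.56, 1.46 and 2.32 in RA-treated wild type cells, and the next highest array, replicate 2 of the day 14 Lmx1a line, read 1.34. A second Tacr3 probe set gave a mean of 2.00 in RA wild type cells and a further one 0.16. Htr7, a Gs-coupled serotonin receptor, read 1.17, 0.54 and 2.91 there, above the 18 other arrays, which reached 0.47 on replicate 1 of the day 10 Lmx1a line. Their other probe sets varied less, with means in RA wild type cells of 0.32 for Htr2c and 0.09 for Htr7.

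**Figure D3:**
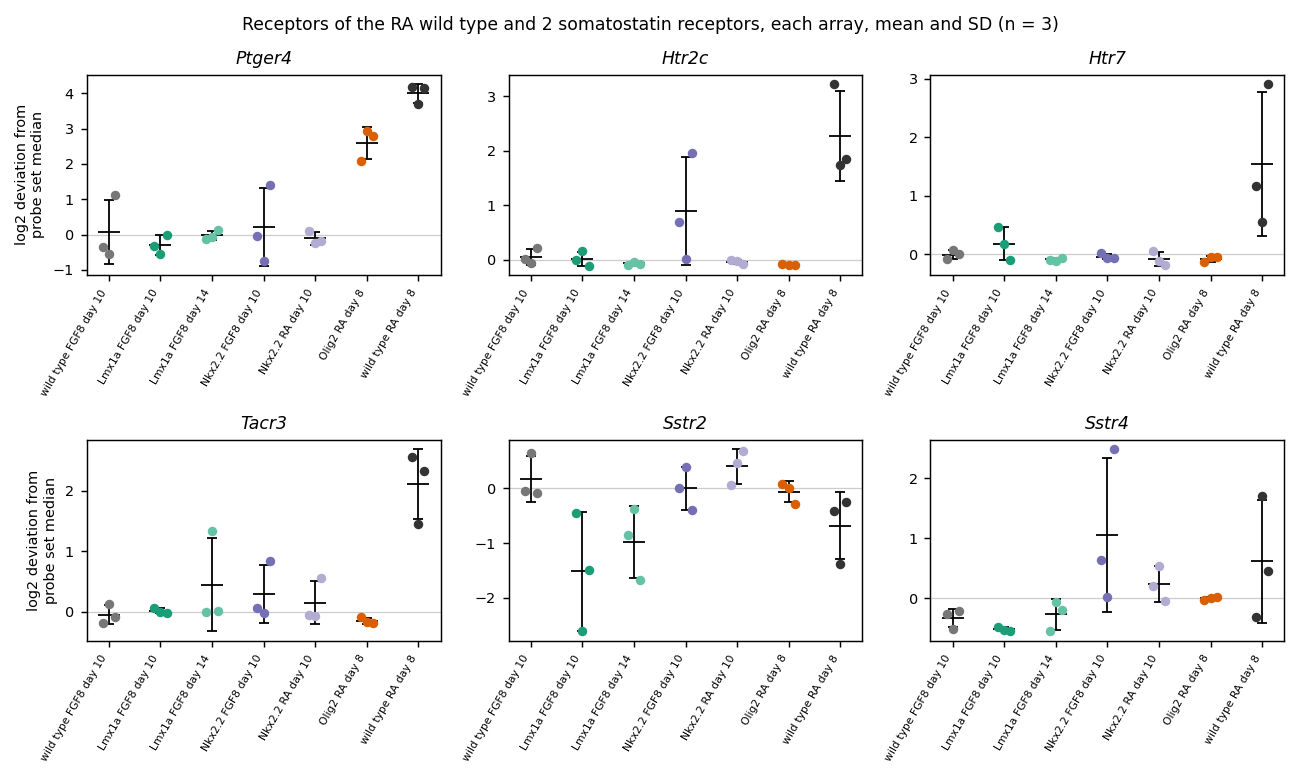
Values of Ptger4, Htr2c, Htr7, Tacr3, Sstr2 and Sstr4 on each of the 21 arrays (points, log2 deviation from the probe set median) in the 7 groups, with the group mean (wide bar) and SD (whiskers, n = 3). Ptger4, Htr2c, Htr7 and Tacr3 are highest in RA-treated wild type cells, and Ptger4 is also high in the Olig2 line.

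Among peptide receptors, Sstr2, a Gi-coupled somatostatin receptor, was lowest in the Lmx1a line. It read -0.44, -2.61 and -1.49 at day 10 and -0.86, -0.38 and -1.68 at day 14. The Nkx2.2 line read 0.02, 0.39 and -0.39 under FGF8 and 0.07, 0.46 and 0.69 under RA, the Olig2 line 0.09, 0.00 and -0.28, the FGF8 wild type -0.05, 0.66 and -0.08, and the RA wild type -0.41, -1.38 and -0.25. The Lmx1a arrays and the RA wild type overlapped. Sstr4 and Sstr1 depended on single arrays: Sstr4 was highest at 2.49 on replicate 3 of the FGF8-treated Nkx2.2 line and 1.71 on replicate 2 of the RA wild type, and Sstr1 at 2.18 on replicate 3 of the RA wild type. Oprl1, the nociceptin receptor, had the largest range of group means of the opioid receptors, 1.32. Its highest means were in the Olig2 line (1.15, 1.13 and 0.83 on its arrays) and the FGF8-treated Nkx2.2 line (0.87, 0.91 and 0.81). Its other probe sets were also highest in the Olig2 line, with means of 0.83 and 0.83. They were next highest in the RA wild type (0.72 and 0.64), above the FGF8-treated Nkx2.2 line (0.55 and 0.46). The largest range among histamine receptors was 0.24, in Hrh1, and among muscarinic receptors 0.11, in Chrm1. Both are small beside the 0.83 of the median gene.

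A first set of comparisons asked how each line differed from wild type cells given the same patterning factor. A gene was called at a Benjamini-Hochberg adjusted p under 0.05 over all 18193 genes in limma and a difference of at least 1 log2 unit. Differences are given with their standard error from 1 variance per gene over all 21 arrays. In the FGF8-treated Nkx2.2 line, 5 receptors rose and 0 fell, where 2.83% of all genes were called higher and 1.71% lower. Ptger3 rose by 6.63 ± 0.69 (adjusted p = 3.35e-05, limma), Htr1b by 4.03 ± 0.445 (5.9e-05), and Htr1a by 2.45 ± 0.314 (0.000225). Drd1 rose by 2.82 ± 0.632 (0.0131) and Adra1b by 2.2 ± 0.618 (0.0437). The arrays of the 2 groups did not overlap for the first 4 genes and did for Adra1b. They also did not overlap for Sstr4, which was not called (0.126). The share of all genes without overlap was not computed, so this is a description only. Over the 40 receptors the median difference was 0.01, against -0.01 over all genes.

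Ptger3, Htr1b and Htr1a kept their calls with any array of the 2 groups left out, with the control-probe split as a block, and within B alone, where only replicate 3 of the wild type remains. Adra1b did not: leaving out Nkx2.2 replicate 1 gave a difference of 1.39 (adjusted p = 0.213, limma) and leaving out replicate 2 gave 1.89 (0.161). Without wild type replicate 1, 2 or 3 its adjusted p was 0.134, 0.0671 or 0.113, and with the split as a block it was 0.112. Drd1 lost its call without replicate 1 of the Nkx2.2 line (2.58, adjusted p = 0.073) or replicate 1 of the wild type (2.62, 0.0629). It also did so with the split as a block (0.0659), with the mean of both probe sets (2.03, 0.0788) and within B (2.85, 0.204). Sstr4 differed by 1.39 (0.126) and was called without Nkx2.2 replicate 2, its lowest array there (1.90, 0.043). Among 7 astroglial marker genes, 2 were called higher and 1 lower in this comparison, with mean deviations of -0.24 to 1.00 on the Nkx2.2 arrays and -1.21 to -0.15 on the wild type arrays. The 7 did not move together. Aqp4, 1 of them, was at 3.41 to 5.49 on the Nkx2.2 arrays under FGF8 or RA and at -0.23 to 1.36 on all other arrays. Of 6 mesenchymal markers, 1 was called higher, with means of 0.16 to 1.73 against -1.26 to 0.40. The part of both lists in the receptor differences was not tested.

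Genes around the receptors moved in the same comparison. Of 33 measured genes for making, carrying or breaking down the ligands, 8 rose and 2 fell. The serotonin genes Tph2 (7.19 ± 1.05, adjusted p = 0.000685, limma) and Slc6a4 (7.97 ± 1.22, 0.00099) were among those that rose. So was Maob, a gene of monoamine breakdown (5.68 ± 0.336, 1.86e-07), and Dbh, which makes noradrenaline, fell by 2.91 ± 0.178. Of 45 G protein signalling genes, 3 rose and 1 fell. Kcnj9, a subunit of the potassium channels opened by Gi-coupled receptors, rose by 2.31 ± 0.455 (0.00594), Adcy1, an adenylyl cyclase, by 1.81 ± 0.361 (0.00641), and Rgs2, which shortens G protein signalling, by 1.48 ± 0.374 (0.0255). The beta-arrestin Arrb2 fell by 1.44 ± 0.327 (0.0146). The median difference was 0.13 for the ligand genes and 0.21 for the signalling genes, against -0.01 over all genes.

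In the RA-treated Nkx2.2 line, 5 receptors rose and 5 fell against the younger RA wild type, where 8.84% of all genes were called higher and 9.16% lower. The arrays of both groups all lie in B. Those that rose were Ptger3 (6.16 ± 0.69, adjusted p = 1.43e-05, limma), Htr1b (4.30 ± 0.445, 6.95e-06), Htr1a (3.25 ± 0.314, 4.09e-06), Drd1 (3.29 ± 0.632, 0.00106) and Adra1b (2.55 ± 0.618, 0.00556). The 4 receptors that were highest in RA-treated wild type cells fell: Ptger4 (-4.11 ± 0.467, 1.55e-05), Htr2c (-2.31 ± 0.391, 0.000391), Tacr3 (-1.97 ± 0.343, 5e-04) and Htr7 (-1.63 ± 0.378, 0.00422). Drd2 also fell by 1.09 ± 0.375 (0.0408), with overlapping arrays. For all 40 receptors the median difference was 0.02, against 0.01 over all genes.

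Drd1 lost its call when only the 6 arrays compared were fitted (3.29, adjusted p = 0.0571, limma), as did Htr7 (0.183) and Drd2 (0.291). Drd2 and Htr7 rested on few arrays of the wild type. Without its replicate 3, the difference of Drd2 was -0.59 (adjusted p = 0.214, limma) and that of Htr7 -0.94 (0.000531), under the threshold of size. Drd2 also missed the threshold without replicate 1 of the wild type (-1.04, 0.109) or without replicate 1, 2 or 3 of the Nkx2.2 line (0.0879, 0.0876 and 0.0841). With a fit on the arrays of B alone the adjusted p was 0.095 for Adra1b, 0.0772 for Htr7 and 0.164 for Drd2, with the same differences. The mean of 6 mesenchymal marker genes was 2.64 and 3.53 on 2 of the RA wild type arrays but -0.35 on the other, replicate 1, and 0.54 to 2.01 in the RA-treated Nkx2.2 line. None of the 6 was called here at adjusted p under 0.05 and 1 log2 unit. Pan-neuronal markers ran from -1.16 to -0.49 in the Nkx2.2 line against 0.01 to 0.76, with 2 of 6 called lower. The 7 astroglial markers ran from 1.12 to 1.25 against -0.35 to 0.81, with 2 called higher and 1 lower. Neither list's arrays overlapped between the groups. The part of these 3 lists in the receptor differences was not tested.

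Of the 33 ligand genes, 8 rose and 5 fell in the RA-treated Nkx2.2 line. Slc18a2, the vesicular monoamine transporter, rose by 5.63 ± 0.334 (adjusted p = 2.38e-08, limma) and Pdyn, the dynorphin precursor, by 1.92 ± 0.117 (3e-08). Somatostatin itself, Sst, fell by 8.62 ± 0.433 (4.81e-09), and Tac1, the substance P precursor, fell by 2.92 ± 0.661 (0.00349). Of the 45 signalling genes, 5 rose and 8 fell. Kcnj3, another potassium channel subunit, rose by 1.33 ± 0.374 (0.0139), Kcnj9 by 1.28 ± 0.455 (0.049) and Rgs2 by 1.68 ± 0.374 (0.00319), and Arrb2 fell by 2.32 ± 0.327 (8.81e-05). The median difference was 0.03 for the ligand genes and -0.24 for the signalling genes, against 0.01 over all genes.

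In the Olig2 line, 1 receptor rose and 3 fell against the RA wild type, which is the same control as above, where 5.5% of all genes were called higher and 4.85% lower. Those that fell were Htr2c (-2.36 ± 0.391, adjusted p = 0.000789, limma), Tacr3 (-2.27 ± 0.343, 0.000381) and Htr7 (-1.62 ± 0.378, 0.00811). Ptger3 rose by 2.10 ± 0.69 (0.0495). Ptger4 differed by -1.40 ± 0.467 and missed the threshold (0.0528). Its arrays did not overlap, but neither did those of receptors that barely differed, such as Chrm1 (0.03) and Tacr1 (0.03). Drd1 differed by 1.28 ± 0.632 (0.208) and was not called. Drd2 differed by -1.06 (0.0672) and was called without replicate 2 of the wild type, at -1.62 (0.00197). The 40 receptors had a median difference of 0.04, equal to that of all genes.

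The rise of Ptger3 in the Olig2 line did not hold with any 1 array of the 2 groups left out: adjusted p was 0.0513, 0.112 and 0.177 without replicates 1, 2 and 3 of the Olig2 line and 0.152, 0.108 and 0.0708 without those of the wild type (limma). Its difference was 1.67 without Olig2 replicate 3 and 1.07 (0.171) with the mean of both probe sets. With the control-probe split as a block it was 2.29 (0.0947), and within B, where only Olig2 replicate 3 remains, 2.95 (0.305). Htr7 had a difference of -0.935 without replicate 3 of the wild type, again under the threshold of size. Within B the differences were -2.37 (0.201) for Htr2c, -2.30 (0.0681) for Tacr3 and -1.59 (0.411) for Htr7. Of the 6 mesenchymal markers, 2 were called lower in the Olig2 line, at -0.79 to 0.17 on its arrays. Of the 7 astroglial markers, 2 were called lower, at -0.86 to -0.55 against -0.35 to 0.81 in the wild type. The part of both lists in the falls was not tested.

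Among ligand genes in the Olig2 line, 2 of 33 rose and 3 fell. The cholinergic pair rose, Chat by 4.39 ± 0.276 (adjusted p = 5.51e-08, limma) and the vesicular acetylcholine transporter Slc18a3 by 6.20 ± 0.704 (3.16e-05), while the muscarinic receptors Chrm1, Chrm3 and Chrm4 were not called. Tac1 fell by 7.69 ± 0.661 (1.81e-06), and Sst fell by 4.57 ± 0.433 (4.96e-06). Of 45 signalling genes, 8 rose and 4 fell, with Rgs4 rising by 4.02 ± 0.511 (8.91e-05), Gnas, the Gs alpha subunit, by 1.82 ± 0.329 (0.00152), and Gnaz, a Gi family subunit, falling (-1.58 ± 0.286, 0.0015). Medians were 0.05 for the ligand genes and 0.02 for the signalling genes, against 0.04 over all genes.

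In the day 10 Lmx1a line, 1 receptor rose and 0 fell against the FGF8 wild type, the control also used for the Nkx2.2 line, where 1.96% of all genes were called higher and 1.36% lower. Htr1b rose by 3.83 ± 0.445 (adjusted p = 0.000214, limma). Its call held without any 1 array and within A, and the adjusted p was 0.0618 when only the 6 arrays compared were fitted. Receptors that were not called include those of dopamine. Drd1 differed by 2.06 ± 0.632 (0.0811), Sstr2 by -1.69 ± 0.466 (0.0513) and Drd2 by 0.42 (0.658). Sstr2 was called without replicate 1 of the Lmx1a line, at -2.23 (0.0112), and with the control-probe split as a block, at -1.89 (0.0347). Taken over the 40 receptors, the median difference was 0.03, equal to that of all genes.

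Of the 33 ligand genes, 4 rose and 2 fell in the day 10 Lmx1a line. Th rose by 3.87 ± 1.03 (adjusted p = 0.0435, limma), Slc18a2 by 1.35 ± 0.334 (0.0309) and Pomc, the beta-endorphin precursor, by 3.53 ± 0.789 (0.0175), and Sst fell by 4.43 ± 0.433 (4.13e-05). Among the 45 signalling genes, 2 rose and 0 fell, Kcnj9 by 2.26 ± 0.455 (0.00961) and Rgs2 by 1.92 ± 0.374 (0.00747). Medians were 0.04 for the ligand genes and near 0 for the signalling genes, against 0.03 over all genes.

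**Figure D4:**
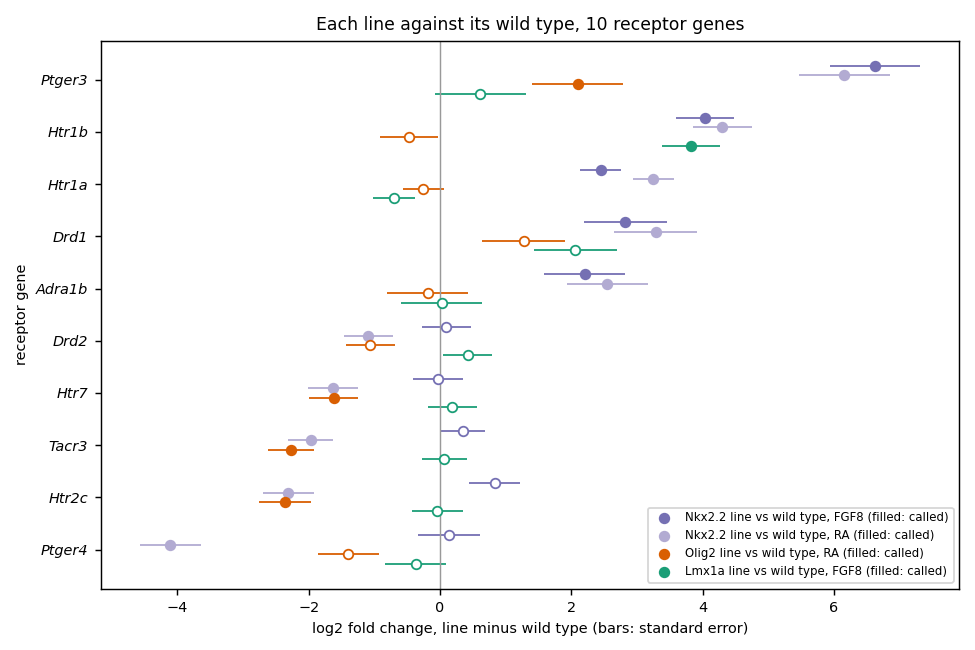
Log2 difference between each line and the wild type given the same patterning factor (points, with standard error bars) for 10 receptor genes; filled points are called in limma at adjusted p under 0.05 and 1 log2 unit. Ptger3, Htr1b, Htr1a, Drd1 and Adra1b are called higher in both Nkx2.2 comparisons, and Htr1b is the 1 receptor called in the Lmx1a line.

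The lines were next compared with each other. Under FGF8, 0 receptors were higher and 3 lower in the day 10 Lmx1a line than in the Nkx2.2 line, where 2.2% of all genes were called higher and 2.87% lower. They were Ptger3 (-6.01 ± 0.69, adjusted p = 0.000149, limma), Htr1a (-3.15 ± 0.314, 6.23e-05) and Adra1b (-2.17 ± 0.618, 0.0405). Htr1b differed by -0.21 ± 0.445 (0.8), with overlapping arrays. Sstr2 differed by -1.52 (0.0563) and was called without day 10 Lmx1a replicate 1 (-2.06, 0.00765). When only the 6 arrays compared were fitted, the call of Ptger3 was lost at the same difference (adjusted p = 0.0703), as was that of Adra1b (0.37). The Adra1b call did not hold without either of the 2 high Nkx2.2 arrays (-1.36, 0.176, without replicate 1 and -1.86, 0.159, without replicate 2). It was also lost without day 10 Lmx1a replicate 1, 2 or 3 (0.0678, 0.0894 and 0.0817). All Lmx1a day 10 arrays lie in A and all Nkx2.2 arrays in B, so line and control-probe split cannot be told apart in this comparison. With the split as a block, estimated from other groups, the adjusted p of Adra1b was 0.18. Mesenchymal markers ran from -2.15 to 0.55 in the Lmx1a line and from 0.16 to 1.73 in the Nkx2.2 line, with 1 of 6 called lower, and 2 of 7 astroglial markers were called lower, at -0.27 to 0.05 against -0.24 to 1.00. Their part was not tested. Of the ligand genes 1 of 33 was higher (Th) and 8 lower, and of the signalling genes 0 of 45 were higher and 2 lower, Kcnj3 at -1.65 ± 0.374 (0.0135) and Rgs10 at -1.33 ± 0.396 (0.0495). Across the 40 receptors the median difference was 0.03, equal to that of all genes.

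Under RA, 5 receptors were higher and 1 lower in the Nkx2.2 line at day 10 than in the Olig2 line at day 8, where 6.19% of all genes were called higher and 6.94% lower. Htr1b was higher by 4.77 ± 0.445 (adjusted p = 2.42e-06, limma), Ptger3 by 4.06 ± 0.69 (0.000554) and Htr1a by 3.51 ± 0.314 (1.68e-06). Adra1b was higher by 2.74 ± 0.618 (0.00475) and Drd1 by 2.01 ± 0.632 (0.0338), and Ptger4 was lower (-2.71 ± 0.467, 0.000615). The arrays did not overlap for any of these 6 genes, nor for receptors that barely differed, such as Drd3 (-0.03) and Htr6 (-0.03). Drd1 lost its call without replicate 3 of the Nkx2.2 line (1.16, 0.153) and without replicate 1 (1.70, 0.137) or 2 (2.02, 0.0831) of the Olig2 line, as well as with only the 6 arrays compared (0.197) and with the control-probe split as a block (1.73, 0.152). Within B, where only Olig2 replicate 3 remains, Htr1a and Htr1b kept their calls. Ptger3 (3.21, 0.205), Ptger4 (-2.90, 0.0638), Adra1b (2.84, 0.308) and Drd1 (1.40, 0.619) did not. Astroglial markers ran from 1.12 to 1.25 in the Nkx2.2 line and from -0.86 to -0.55 in the Olig2 line, with 2 of 7 called higher. Mesenchymal markers ran from 0.54 to 2.01 and from -0.79 to 0.17, with 3 of 6 called higher, and pan-neuronal markers from -1.16 to -0.49 and from -0.09 to 0.34, with 1 of 6 called lower. None of the 3 lists overlapped between the groups, and their part in the receptor differences was not tested. Of the ligand genes 10 of 33 were higher and 4 lower, and of the signalling genes 4 of 45 were higher and 12 lower. Rgs2 was higher by 2.60 ± 0.374 (0.000131) and Rgs4 lower (-2.49 ± 0.511, 0.00235). The median difference of the 40 receptors was -0.02, against -0.03 over all genes.

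No receptor was called for time or for patterning within a line. Between day 14 and day 10 of the Lmx1a line, 0 of 40 were called, where 2.96% of all genes were called higher and 1.28% lower in limma. An unadjusted p under 0.05 was reached by 2 of them, Htr1b and Sstr3. The share of all genes reaching it was not computed, so this count is a description only. Htr1b differed by -1.04 ± 0.445 (adjusted p = 0.178), and without replicate 3 of day 10, its lowest array, by -1.67 (0.0118), which is a call. Drd1 differed by 1.13 (0.28) and Drd2 by -0.46 (0.424). In the same interval the dopamine transporter Slc6a3 rose by 4.26 ± 0.325 (1.54e-06), the 1 called of 33 ligand genes. The 40 receptors had a median difference of -0.06, against -0.05 over all genes.

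Between FGF8 and RA in the Nkx2.2 line, 0 of 40 receptors were called, where 1.65% of all genes were called higher and 2.66% lower in limma. An unadjusted p under 0.05 was reached by 3 of them, Htr1b, Htr2c and Oprk1. The share of all genes reaching it was not computed, so this count is a description only. Htr1b differed by -1.17 ± 0.445 (adjusted p = 0.146), with every RA array above every FGF8 array. Arrays also did not overlap for receptors that differed little, such as Chrm1 (0.09) and Drd2 (0.16). Ptger3 differed by -0.27 ± 0.69 (0.851), Htr1a by -0.10 ± 0.314 (0.882) and Drd1 by -1.12 (0.384). Taken over the 40 receptors, the median difference was 0.04, against 0.03 over all genes. Pan-neuronal markers ran from -0.42 to 0.21 under FGF8 and from -1.16 to -0.49 under RA, with 2 of 6 called higher under FGF8. Astroglial markers ran from -0.24 to 1.00 under FGF8 and from 1.12 to 1.25 under RA, with 1 of 7 called lower under FGF8. Of the 6 mesenchymal markers, 0 were called. The part of these lists was not tested. The peptide ligands Sst (5.01 ± 0.433, 4.74e-06) and Pomc (4.48 ± 0.789, 0.00299) were higher under FGF8, and Tac1 (-3.05 ± 0.661, 0.011) and Pdyn (-1.83 ± 0.117, 1.34e-07) lower.

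In wild type cells, 4 receptors were higher and 0 lower under RA at day 8 than under FGF8 at day 10, where 4.29% of all genes were called higher and 3.11% lower. Ptger4 was higher by 3.93 ± 0.467 (adjusted p = 0.00011, limma), Htr2c by 2.22 ± 0.391 (0.0021), Tacr3 by 2.17 ± 0.343 (0.000975) and Htr7 by 1.55 ± 0.378 (0.0153). Drd2 differed by 1.03 ± 0.375 (0.0927) and was called without RA replicate 2 (1.59, 0.00393). With only the 6 arrays compared, the adjusted p was 0.0503 for Htr2c and 0.246 for Htr7. Htr7 had a difference of 0.87 without RA replicate 3 (0.00223) and an adjusted p of 0.0545 without FGF8 replicate 1 and 0.0599 with the control-probe split as a block. Within B, where only FGF8 replicate 3 remains, Ptger4 differed by 2.88 (0.0637), Htr2c by 2.05 (0.227), Tacr3 by 2.2 (0.0546) and Htr7 by 1.54 (0.37). The mean of the 6 mesenchymal markers ran from -1.26 to 0.40 under FGF8, against -0.35, 2.64 and 3.53 under RA. Of the 6, 1 was called higher under RA. Astroglial markers ran from -0.35 to 0.81 under RA and from -1.21 to -0.15 under FGF8, with 2 of 7 called higher. The part of both lists was not tested. Across the 40 receptors the median difference was -0.04, against -0.05 over all genes.

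Ligand genes of these systems also differed. Tac1 was higher under RA by 7.56 ± 0.661 (adjusted p = 5.35e-06, limma), Penk, the enkephalin precursor, by 5.07 ± 0.654 (0.000208) and Pnoc, the nociceptin precursor, by 2.88 ± 0.851 (0.039), while Dbh was lower (-2.96 ± 0.178, 6.56e-08). In all, 3 of 33 ligand genes were higher and 3 lower. Of 45 signalling genes, 6 were higher and 0 lower, among them the cyclase Adcy2 (2.54 ± 0.266, 3.49e-05) and Gnaz (1.24 ± 0.286, 0.0119). The opioid receptors Oprd1, Oprk1, Oprm1 and Oprl1 were not called in this or any other comparison.

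Whether the effect of the Nkx2.2 line differed between FGF8 and RA was tested as an interaction. It was called for 3 receptors, all with the larger value under FGF8, where 2.6% of all genes were called in that direction and 1.78% in the other. They were Ptger4 (4.25 ± 0.66, adjusted p = 0.00217, limma), Htr2c (3.15 ± 0.552, 0.00489) and Tacr3 (2.32 ± 0.485, 0.0134). For Ptger4, the Nkx2.2 line differed from wild type cells by 0.14 under FGF8 and by -4.11 under RA. The interaction uses the same arrays as the 2 line comparisons and the wild type comparison, so it adds no separate samples. Within B, with 1 array of the FGF8 wild type, the 3 values were 3.20 (0.0872), 2.98 (0.149) and 2.34 (0.085). Without replicate 2 of the RA wild type, 5 receptors were called, the additional ones being Htr7 (2.09, 0.0165, against 1.59, 0.0991, with all arrays) and Drd2 (1.74, 0.0219). That array was the lowest of the RA wild type for both genes, at 0.54 for Htr7 and -0.05 for Drd2. Over all genes, 548 were called without it, against 796 with all arrays. Ptger3, Htr1a, Htr1b, Drd1 and Adra1b were not called in the interaction. Its median was -0.02 over the 40 receptors, as over all genes.

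The other 26 receptors stayed within 0.75 log2 units of their median on all 21 arrays, as did 42.6% of all genes. That limit was chosen after the values were seen. The largest deviation among them was 0.66, in Htr5a, and the smallest maximum among the 14 others was 1.29, in Oprl1. They were Htr1d, Htr1f, Htr2b, Htr4, Htr5a, Htr5b and Htr6 for serotonin, Drd3 and Drd4 for dopamine, Adra2c for noradrenaline, Chrm1, Chrm3 and Chrm4 for acetylcholine, and Hrh1 to Hrh4 for histamine. The peptide and prostaglandin receptors among them were Oprd1, Oprk1, Oprm1, Sstr3, Sstr5, Ptger1, Ptger2, Tacr1 and Tacr2. The median over these 26 on an array ran from -0.03 to 0.11 and moved with the median over all probe sets of that array, which ran from -0.03 to 0.09 (Pearson r = 0.99 over 21 arrays, a description, since both share the array). Of the 26, 17 had their highest group mean in the day 10 Lmx1a line and 20 their lowest in the RA wild type. Because centring removed the level, receptors absent from all 7 groups cannot be told apart from receptors present equally in all 7.

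**Figure D5:**
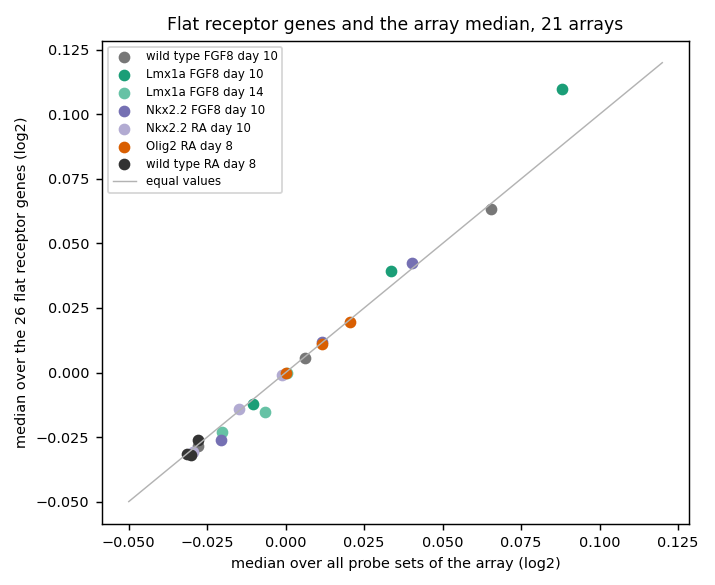
Median over the 26 receptor genes that stay within 0.75 log2 units (vertical axis) against the median over all probe sets (horizontal axis, both log2 deviation) for each of the 21 arrays, coloured by group, with the line of equal values. The points follow the line from about -0.03 to 0.09, and the highest is replicate 1 of the day 10 Lmx1a line.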

How the data were processed

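The 21 samples were grouped by their titles. The deposited log2 signals were made with GCRMA, per the submitters' processing notes (version not given in the sources used here). As the values show, the authors also centred each probe set on its median over 27 arrays, which keeps differences between arrays but removes levels. Control probe sets (64), probe sets without a name here (9160) and those with several symbols (932) were set aside. Every gene took the probe set of largest SD. The limma package (version 3.58.1, R 4.3.3) fitted 18193 genes at once, with a mean for each group (lmFit, contrasts.fit, eBayes; 14 residual and 1.11 prior degrees of freedom) and Benjamini-Hochberg adjustment within each of 9 comparisons and 1 interaction. The receptors named with values are Ptger3, the autoreceptors (10 listed, 8 measured), every called member and, in each family without a called member, the one with the largest range of group means; Sstr1, Sstr4 and Htr5a were added after their values were seen. The members, lists, tests and alternatives were chosen with earlier results of these data known. The fit was checked on simulated data. Alternatives were a replicate block, array quality weights (gene-by-gene method, as the default one did not converge), trend and robust moderation (statmod 1.5.0), only the groups compared, the mean of all probe sets, arrays centred on their median, the control-probe split as a block or each side alone, and arrays left out.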

Additional observations from a re-analysis of the deposited data

Results flagged for a closer look

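For 3 receptors the difference between the Nkx2.2 line and wild type cells was not the same under FGF8 and RA, by a test of the difference itself (limma interaction, adjusted over all genes). Ptger4 had an interaction of 4.25 ± 0.66 log2 units (adjusted p = 0.00217), Htr2c of 3.15 ± 0.552 (0.00489) and Tacr3 of 2.32 ± 0.485 (0.0134). In each case RA-treated wild type cells were the highest group. The 2 wild type groups also differ in day, and the Nkx2.2 groups do not.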

How the results depend on the processing

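Of 36 called differences of receptors, 12 were called under every alternative run, 24 lost the call in at least 1, and 0 changed direction. The number lost was 1 of 36 with the replicate block (Adra1b in the FGF8-treated Nkx2.2 line against wild type cells, adjusted p = 0.0557, limma, where Ptger4 in the Olig2 line against wild type cells gained a call at 0.0254), 11 with only the groups compared, 7 with the control-probe split as a block, 5 with the mean of all probe sets, 4 without 3 arrays together (replicate 1 of the day 10 Lmx1a line, replicate 2 of the FGF8 wild type and replicate 1 of the FGF8-treated Nkx2.2 line), and 1 each with quality weights, robust moderation and centred arrays. Within B 20 of 32 were lost, where the Olig2 line and the FGF8 wild type have 1 array each, assumed to vary like the other groups. Replicate numbers did not pair the samples: deviations of same-numbered arrays of different groups correlated at 0.00603 on average over 63 pairs, against -0.00337 over 126 other pairs.

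The Lmx1a line against wild type cells gave 0 called receptors with only the groups compared, 2 with the mean of probe sets, with the split as a block and without the 3 arrays, 4 with quality weights, and 1 to 2 with 1 array left out. Over all genes this comparison had 603 calls in the main fit, 168 with only the groups compared and 2069 with quality weights. It had 523 with the mean of probe sets, 537 with the block and 668 without the 3 arrays. The FGF8-treated Nkx2.2 line against wild type cells gave 3 with the split as a block and within B, and 3 to 5 with 1 array left out. The Olig2 line gave 2 with the mean of probe sets, 0 within B, 7 with quality weights, and 2 to 4 with 1 array left out. Day 14 against day 10 gave 3 with quality weights and 0 to 1 with 1 array left out, and the Nkx2.2 line compared between FGF8 and RA gave 1 with quality weights. Over all genes, quality weights gave 2299 calls against 772 for day and 1851 against 785 for the patterning factor. The Lmx1a line set against Nkx2.2 cells gave 1 with only the groups compared, the Nkx2.2 line against the Olig2 line 2 within B, and RA against FGF8 in wild type cells 2 with only the groups compared and 0 within B. The interaction gave 0 within B, 5 with quality weights and 3 to 5 with 1 array left out. Calls over all genes moved here as well. In the Olig2 line they went from 1884 to 2668 with quality weights and to 1220 with the mean of probe sets. The interaction had 3448 with quality weights, against 796. With only the groups compared, 124 were called against 923 between the Lmx1a and Nkx2.2 lines, and 735 against 1346 in wild type cells. The split as a block gave 665 against 825 in the FGF8-treated Nkx2.2 line. The fits within B and of only the groups compared use fewer arrays, and for the other changes the cause was not tested.

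Differences that turned sign were all uncalled with all arrays. Htr1b between the Lmx1a and Nkx2.2 lines was 0.153 with quality weights and ran from -0.643 to 0.425 with 1 array left out. Ptger3 between FGF8 and RA in the Nkx2.2 line was 0.461 with quality weights and ran from -0.952 to 0.689, and Htr1a was 0.12 with the mean of probe sets and ran from -0.46 to 0.154.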

Other observations

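Markers of other cell types that are not given beside a receptor above varied as follows, as mean deviations over each list. Myelinating glia markers (4 measured) were highest in the RA-treated Nkx2.2 line, at 0.81 to 0.93 on its arrays, against -0.29 to 0.61 on all others, and 1 of the 4 was called higher there than in wild type cells. Neural progenitor markers were at 1.67 and 2.01 on 2 of the FGF8 wild type arrays and at -1.06 on the other, and ran from -0.97 to 0.97 elsewhere. Endothelial markers ran from 0.13 to 0.65 in the Lmx1a line and from -0.05 to 0.27 in the other groups. Microglia and blood markers stayed between -0.09 and 0.13 on all arrays and pluripotency markers between -0.08 and 0.31. The part of these lists in the receptor differences was not tested.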
